A study of Mus musculus with 12 samples.

Results

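Potassium channel genes were followed in the hippocampus of young mice that carry 1 mutant copy of the chromatin remodeller gene Chd8. The members were the rows of the deposited table whose mouse symbol begins with Kcn and whose mean over the 12 libraries was at least 10 normalized counts. Kcnc2, Kcne2, Kcnj8 and antisense or opposite-strand transcripts were left out by the rule. Of 99 rows with such a symbol among 46078 gene identifiers, 79 were members, 12 lay below the minimum, 5 were antisense or opposite-strand transcripts and 3 were the named exclusions. The members just inside the minimum were Kcnn4 at 10.6 and Kcnrg at 16.8 normalized counts, and the rows just outside it were Kcne3 at 5.10 and Kcnv2 at 4.13. All mice were C57BL/6 and were taken at postnatal day 25. The 4 groups, with 3 libraries each, were wild-type males, wild-type females, and males and females heterozygous for CHD8 Asn2373LysfsX2, called mutant here. The labels name no litter, batch or number of animals per library, and a p-value here reflects only how far these libraries scatter, part of which may be technical.

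Potassium channels let potassium leave the cell, or enter it near rest, and thereby set the resting potential, end the action potential and space successive spikes. Voltage-gated channels (Kcna, Kcnb, Kcnc, Kcnd, Kcnh and Kcnq) open on depolarization, inward rectifiers (Kcnj) pass current best near rest, tandem-pore channels (Kcnk) carry leak current, and Kcnn and Kcnma1 open with intracellular calcium. In the hippocampus Kcna channels sit on axons, the Kcnd and Kcnip subunits form the dendritic A-type current of pyramidal cells, Kcnq subunits form the M-current, Kcnc channels serve fast-spiking interneurons, and Kcnj10 takes up potassium in astrocytes.

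The promoters of Kcnj13 and Kcnj2 are shown because the first had the largest within-group spread among the members and the second the smallest p between the sexes. Each run gives the 250 bases before the RefSeq start site (GRCm38.p6), 5′ to 3′ on the gene's strand, for Kcnj13 at chr1:87394730-87394979 (minus strand) and for Kcnj2 at chr11:111065914-111066163 (plus strand). Capitals mark TATAAA and CCAAT, or ATTGG where CCAAT is on the other strand.
Kcnj13: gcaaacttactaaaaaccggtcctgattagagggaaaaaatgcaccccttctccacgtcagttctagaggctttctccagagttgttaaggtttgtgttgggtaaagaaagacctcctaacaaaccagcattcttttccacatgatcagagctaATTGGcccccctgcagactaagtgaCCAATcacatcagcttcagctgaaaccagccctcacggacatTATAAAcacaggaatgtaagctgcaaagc
Kcnj2: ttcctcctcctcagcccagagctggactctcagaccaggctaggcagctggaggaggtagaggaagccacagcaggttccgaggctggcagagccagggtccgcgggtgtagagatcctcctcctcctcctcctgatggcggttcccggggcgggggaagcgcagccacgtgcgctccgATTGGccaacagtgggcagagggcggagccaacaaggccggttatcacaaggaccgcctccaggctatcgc
The Kcnj13 window holds TATAAA 29 bases before the start site and CCAAT at 71 bases, with CCAAT on the other strand at 96 bases. It is 45.2% G or C and has 3 CpG. The Kcnj2 window has CCAAT on the other strand at 71 bases, no TATAAA, 65.6% G or C and 14 CpG. TAATCC, a core sequence bound by OTX2, a factor of choroid plexus epithelium, was found in neither window. Of 32851 promoter windows of this length, read on both strands, 12.4% hold TATAAA, 33.8% CCAAT and 6.25% TAATCC. Of 76 windows of the 56 members that have an entry, 3.95%, 27.6% and 2.63% do. The member windows had a median of 60.4% G or C against 52.4% for all windows, and a median of 8 CpG against 6. A match is a description of the letters only.

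Library depth, Chd8 and cell type markers were read first. Recovered reads ran from 23721482 to 24654408 in the mutant libraries and from 26912998 to 33327314 in the wild-type libraries, so depth and genotype cannot be told apart. Chd8 lay between 2383 and 2513 normalized counts in the mutant libraries and between 2751 and 2994 in the wild-type libraries (log2 difference averaged over the sexes -0.22 ± 0.03 SE, limma adjusted p = 0.0289), and it was the gene called for the averaged genotype effect. The call was lost in 10 of 12 fits that left out 1 library (log2 difference -0.24 to -0.21, highest limma adjusted p = 0.161), and was kept without mutant male 3 and without wild-type male 1. It was also lost with the replicate number as a block (limma adjusted p = 0.131), with the mean log2 value of the myelin markers (the myelin score) in the model (limma adjusted p = 0.835) and with no filter on low values (limma adjusted p = 0.0538). The log2 difference in these fits was -0.22, -0.23 and -0.22. The myelin score was 13.33 to 13.47 in wild-type and 13.00 to 13.38 in mutant males, and 13.48 to 13.70 and 13.27 to 13.48 in the females. A fit with that score therefore cannot fully tell it apart from genotype. All 8 pyramidal neuron markers and all 6 dentate granule cell markers were measured, with Camk2a at 89443 to 109369 normalized counts. The 3 libraries wild-type female 1 and mutant male 2 and 3 stood apart in 10 choroid plexus markers, with summed counts of 6364 in the lowest mutant male and 7070 in the lowest wild-type female. The highest sums in those groups were 232357 and 241538, and sums ran from 207168 to 257152 in wild-type males and from 84716 to 193784 in mutant females. Ttr was 167, 269 and 274 in those 3 libraries and at least 43047 in the other 9, and none of the 10 markers was at 0. A fit without these 3 libraries keeps mutant male 1 as the only mutant male, and wild-type females 2 and 3. In bulk tissue, fewer cells of a type and less RNA per cell cannot be told apart.

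Levels spanned a wide range. A level is given per length as RPKM, recovered reads per kilobase of exon scaled to library size, with the SD over the 12 libraries. The highest was Kcnab2, a cytoplasmic beta subunit of Kcna channels, at 104 ± 7.51 RPKM. Kcnip2, a calcium-binding partner of Kcnd channels, followed at 64.6 ± 4.82 RPKM and the axonal channel Kcna1 at 55.5 ± 2.7 RPKM. The ranges of Kcnip2 and Kcna1 over the libraries overlapped, and the range of Kcnab2 lay above both. The next members described here were Kcnj10 at 40.1 ± 2.53 RPKM and the tandem-pore channel Kcnk1 at 39.2 ± 3.14 RPKM, whose ranges overlapped. Lower were Kcnj4 (29.4 ± 2.57 RPKM), a strong inward rectifier, and Kcnd2 (26.5 ± 1.5 RPKM), the main A-type subunit, whose ranges overlapped as well. The median member had a level of 4.51 RPKM. In all, 13 members were at or above 20 RPKM, 25 at or above 10, 64 at or above 1 and 15 below 1. Kcnn4, an intermediate-conductance calcium-activated channel, was lowest at 0.0774 ± 0.0161 RPKM.

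**Figure D1:**
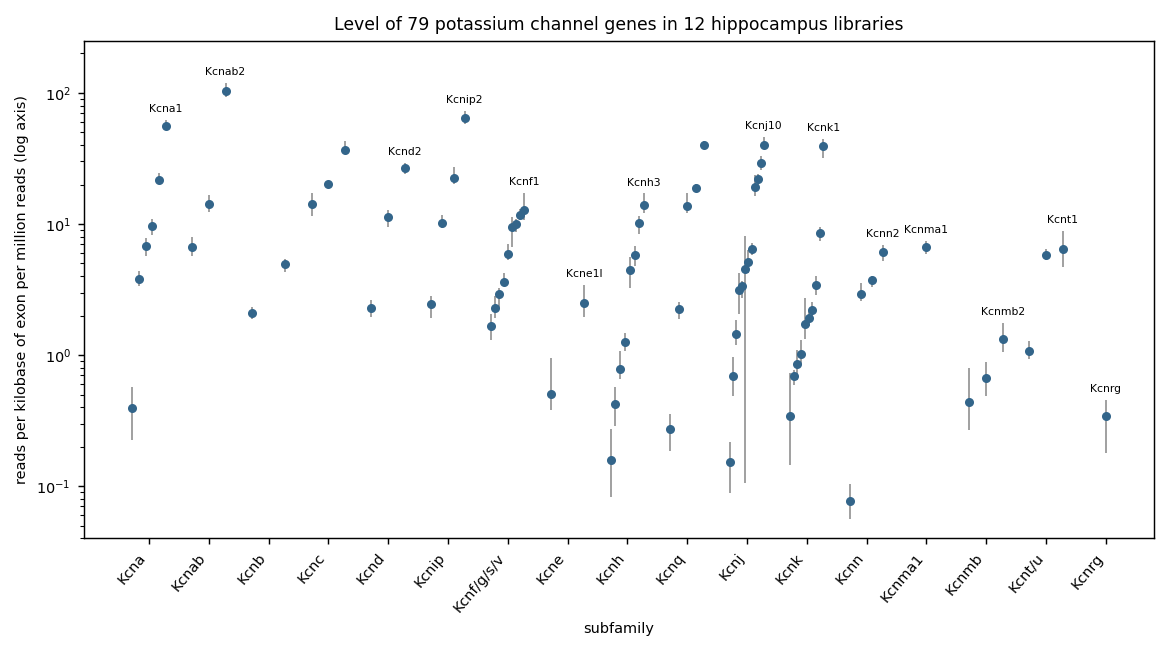
Level of each of the 79 members (points, mean over 12 libraries; grey lines, lowest to highest library) on a log axis of RPKM, by subfamily. Kcnab2 at 103.5 RPKM stands above all other members, and the long line in the Kcnj column is Kcnj13, which ran from 0.105 to 8.14 RPKM.

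By subfamily, the 12 Kcnj inward rectifiers had the largest summed level, 135 of 847 RPKM over all members (16.0%), although the Kcnab sum was above the Kcnj sum in 2 of 12 libraries (wild-type female 2 and mutant male 2). The 3 beta subunits of Kcna channels (Kcnab) summed to 124 RPKM and the 4 Kcnip subunits to 99.6 RPKM. Among pore-forming voltage-gated families the sums were 97.7 RPKM for 6 Kcna genes, 75.3 for 5 Kcnq genes, 70.9 for 3 Kcnc genes, 40.2 for 3 Kcnd genes, 37 for 8 Kcnh genes and 7.06 for 2 Kcnb genes. The 9 Kcnf, Kcng, Kcns and Kcnv genes, silent subunits that assemble with Kcnb subunits and form no channel alone, summed to 60.5 RPKM. The 10 Kcnk genes summed to 59.9 RPKM, the sodium-activated channels Kcnt1 and Kcnt2 with the related Kcnu1 to 13.2, the 4 Kcnn genes to 12.9 and Kcnma1 alone to 6.65 RPKM. The small accessory subunits summed to 2.99 RPKM for 2 Kcne genes and 2.42 RPKM for 3 Kcnmb genes, which modify Kcnma1.

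The summed level of all members was 834 ± 15 in male wild types, 857 ± 23.1 in male mutants, 857 ± 22.8 in female wild types and 838 ± 7.85 in female mutants RPKM (SD, n = 3 each), and single libraries ran from 817.1 to 883.9 RPKM. In males 4 of 17 subfamily sums were higher in every mutant than in every wild-type library (Kcnd, Kcne, Kcnn and Kcnma1), and none was lower in every mutant library. In females 3 of 17 were lower in every mutant library (Kcna, Kcnip and Kcnq), and none was higher. The Kcna sum was 96.9 ± 1.26 in male wild types, 96.5 ± 3.15 in male mutants, 102 ± 1.21 in female wild types and 95.7 ± 3.06 in female mutants RPKM. The Kcnip sum was 100 ± 4.26 in male wild types, 103 ± 6.4 in male mutants, 102 ± 2.86 in female wild types and 93.9 ± 2.47 in female mutants RPKM, and the Kcnq sum was 75.4 ± 1.63 in male wild types, 76.3 ± 1.54 in male mutants, 76.5 ± 1.42 in female wild types and 73 ± 1.64 in female mutants RPKM. For these 3 families the female groups did not overlap and the male groups did. The Kcnd sum, 39.2 ± 0.939 in male wild types, 41.5 ± 1.05 in male mutants, 40.1 ± 1.03 in female wild types and 40.2 ± 0.76 in female mutants RPKM, did not overlap in males and did in females. A sum over a subfamily was given no test, and no background share was computed for sums. Of single tested genes, 8.37% were higher without overlap in mutant males and 5.66% lower in mutant females. Some sums rest largely on 1 gene. Kcna1 had 55.5 of 97.7 RPKM in Kcna, Kcnip2 64.6 of 99.6 in Kcnip and Kcne1l 2.48 of 2.99 in Kcne. No single Kcnip or Kcnq member was separated in females, and no single Kcnd member in males.

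**Figure D2:**
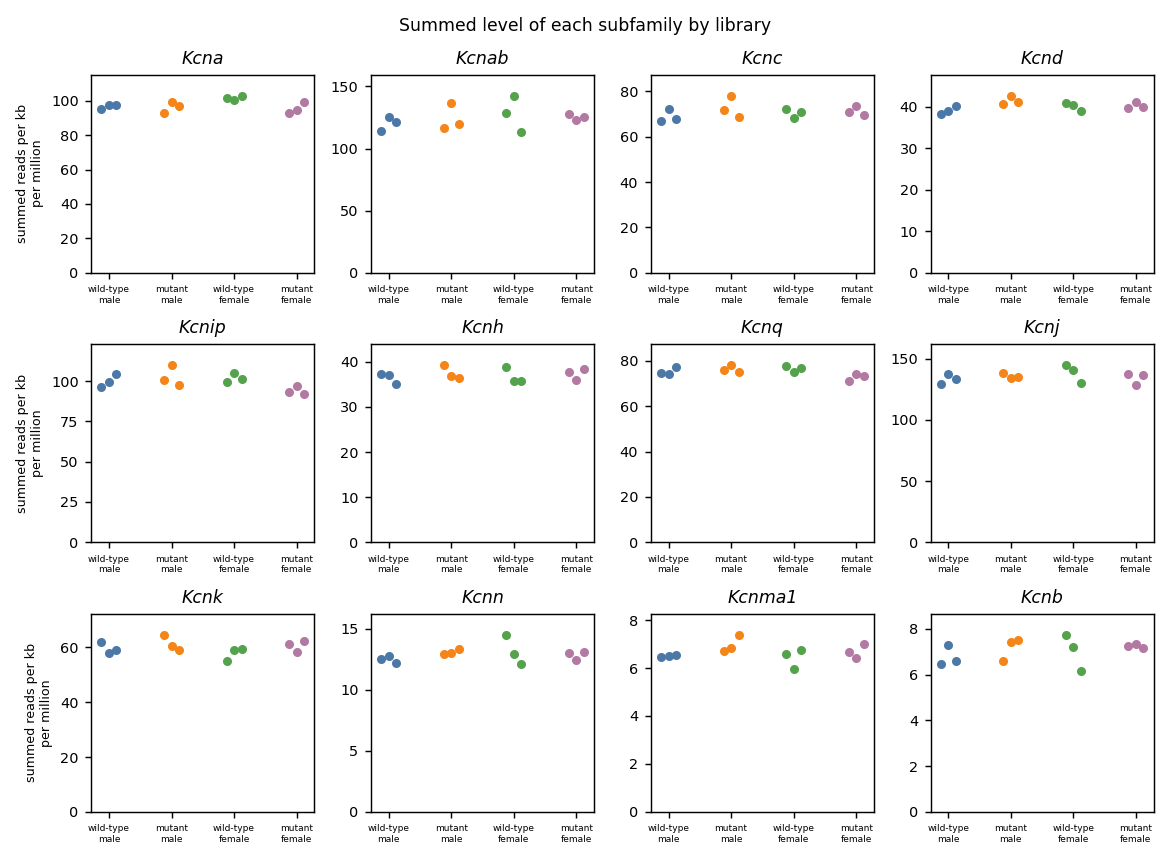
Summed level of 12 subfamilies (vertical axis from 0, RPKM) in each library, 3 points a group. The Kcna, Kcnip and Kcnq sums of the 3 mutant females lie below those of the 3 wild-type females, and the Kcnd, Kcnn and Kcnma1 sums of the 3 mutant males lie above those of the 3 wild-type males.

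Kcnj13 differed most between libraries. It encodes an inward rectifier of choroid plexus and retinal pigment epithelium, and lies at chr1:87386363-87394729 on the minus strand (GRCm38). Its normalized counts were 272, 208 and 249 in male wild types, 276, 13.6 and 9.78 in male mutants, 3.63, 80.8 and 239 in female wild types and 181, 106 and 203 in female mutants. The 3 lowest values belonged to the 3 libraries low in choroid plexus markers, and the other 9 libraries had at least 80.8. The within-group SD of its log2 value was 1.98, against a median of 0.15 over the members and 0.11 over all 17496 tested genes. The log2 difference was -2.78 ± 1.32 in males (limma adjusted p = 0.497) and 1.82 ± 1.32 in females (limma adjusted p = 0.844), and the difference between these effects was -4.60 ± 1.86 (limma adjusted p = 0.619). Without the 3 libraries, which leaves mutant male 1 as the only mutant male, that last value was 0.017. With the mean log2 value of the 10 markers (the choroid plexus score) in the model it was 0.076. In males that score was 11.38 to 11.71 in wild types and 5.85 to 11.55 in mutants. A fit with the score therefore cannot fully tell it apart from genotype in males. All 10 markers were lower in mutant males and higher in mutant females, as Kcnj13 was. Of its exon bases, 49.1% lie opposite exons of Gigyf2, and the library kit does not mark strand, so reads from those bases cannot be assigned by strand. Gigyf2 had a mean of 2386 normalized counts, and the lowest Kcnj13 value was 3.63. The effect of the overlap on the Kcnj13 level was not tested. The astrocyte channel Kcnj10 did not share the pattern, with 6773, 5571 and 6108 normalized counts in the 3 libraries and 5458 to 6332 in the other 9.

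**Figure D3:**
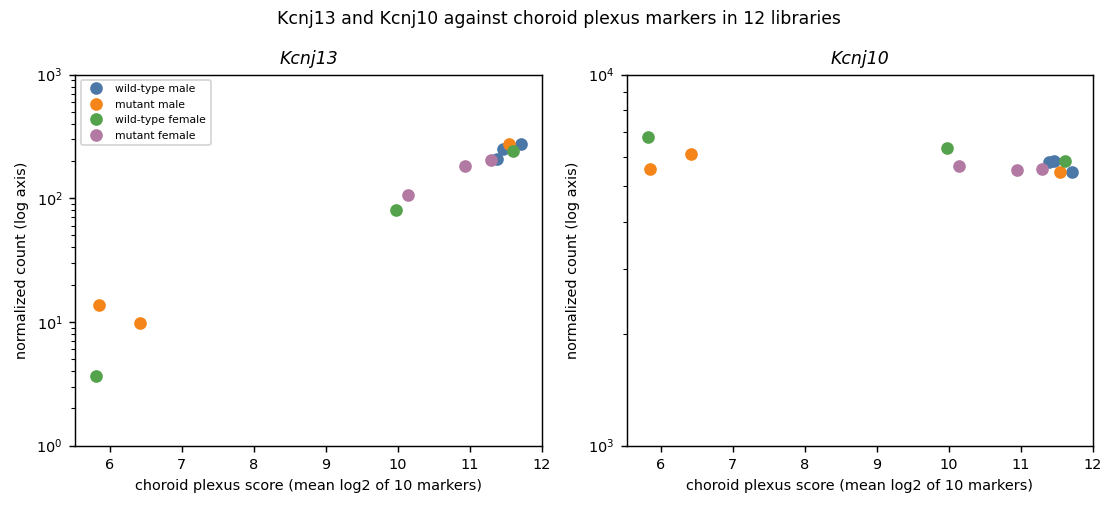
Normalized counts (log axis) of Kcnj13 (left) and Kcnj10 (right) against the choroid plexus score of each library, coloured by group. The 3 libraries with scores of 5.82 to 6.42 have 3.63 to 13.6 counts of Kcnj13 and 5571 to 6773 counts of Kcnj10.

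Besides Kcnj13, 8 members had a within-group SD above 0.3 on the log2 scale (Kcna5, Kcne4, Kcnh8, Kcnj5, Kcnk3, Kcnk5, Kcnmb1 and Kcnrg), all of them with a level under 2 RPKM. Of these, Kcnmb1, the smooth muscle beta subunit of the large-conductance channel, and with it Kcne4 and Kcnk5, were singled out after their values were seen. The Kcnmb1 normalized counts were 37.6, 47.4 and 53.3 in male wild types, 34.3, 46.5 and 47.8 in male mutants, 42.7, 53.9 and 57.3 in female wild types and 30.5, 89.0 and 55.4 in female mutants. Mutant female 2 had the highest value, and it also had the highest values of Kcne4 (67.3), Kcnk5 (66.2) and Kcnj2 (614). These 4 were 5.06% of the members, against 10.7% of all tested genes that were highest in that library. The mean log2 value of 8 pericyte and smooth muscle markers was 10.02 in that library and 8.38 to 9.51 in the other 11. Summed counts of these markers were 7052 to 7531 and 7459 to 9773 in the male groups and 7341 to 7774 and 7954 to 13536 in the female groups, wild type first, and none of the 8 was at 0. Their part in the values of Kcnmb1, Kcne4 and Kcnk5 was not tested.

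No potassium channel gene passed limma's adjusted threshold of 0.05 for the genotype effect in males, in females or averaged over the sexes. None passed for the male minus female difference of these genotype effects. The background was as low: in these tests 0.0% of 17496 genes passed in males, 0.0% in females, 0.00572% (Chd8 itself) in the average and 0.0% for the difference. At an unadjusted p under 0.05, limma gave 8 members in males (7 higher and 1 lower in mutants; background 10.3%, of which 4.1% higher and 6.23% lower), 9 in females (all lower; background 6.9%, of which 3.07% lower), 7 averaged (4 higher, 3 lower; background 8.87%, of which 4.4% higher and 4.47% lower) and 6 for the difference (background 7.85%). The 9 of 79 lower in females and the 7 of 79 higher in males were larger shares than their backgrounds, and the 1 of 79 lower in males was a smaller one. edgeR on the recovered reads gave 8, 9, 7 and 5 members at an unadjusted p under 0.05 and DESeq2 gave 7, 6, 6 and 4, and neither called a member for a genotype effect. DESeq2 gave no adjusted p to 57 of 79 members in males, 34 in females and 14 in the average, so it could not call those. DESeq2 called 0.2% of all genes in males, 0.0629% in females, 0.429% averaged and 0.0171% for the difference. The median half-width of a member's 95% interval was 0.25 on the log2 scale in males and in females. Log2 differences were within 0.2 of 0 for 66 of 79 members in males and for 66 in females, and the whole interval lay within 0.5 of 0 for 61 and 63.

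**Figure D4:**
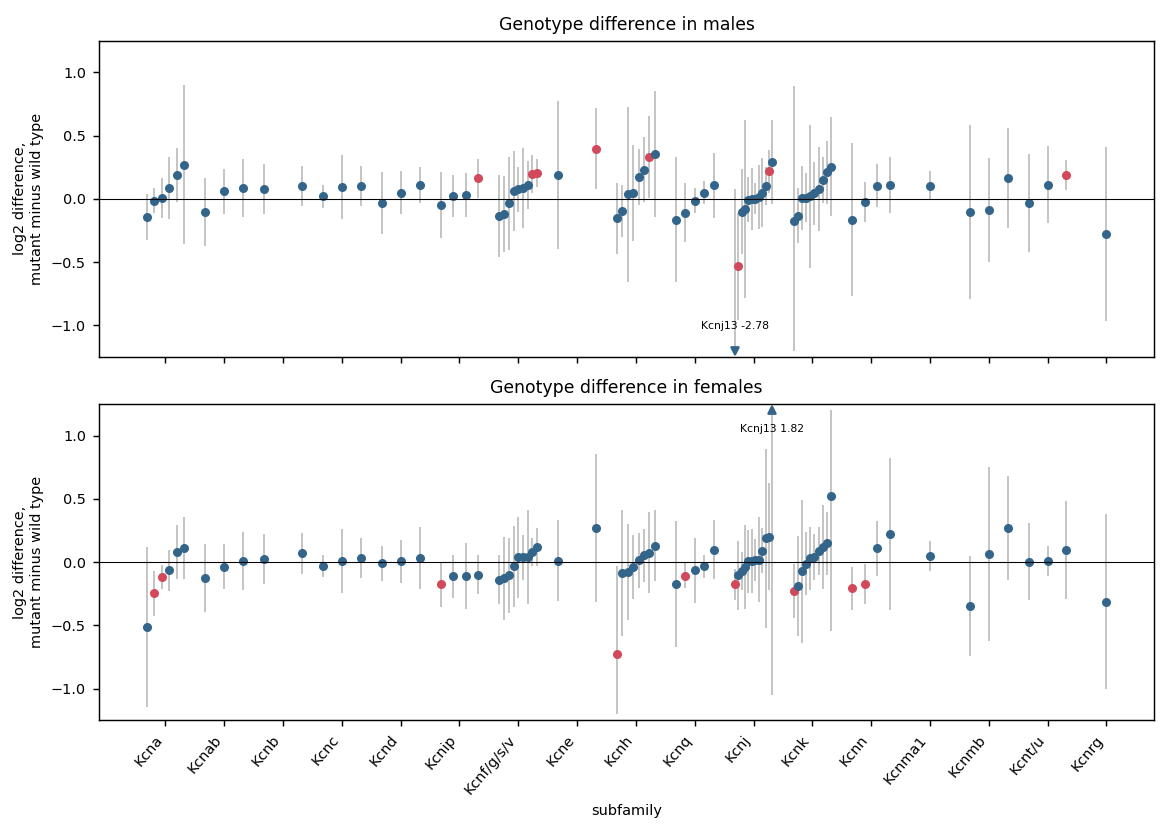
Log2 difference (mutant minus wild type, log2(value + 1) scale) of each member by subfamily in males (top) and females (bottom), with its 95% interval from limma. Red points had an unadjusted p under 0.05 (8 in males, 9 in females), none had an adjusted p under 0.05, and Kcnj13 is drawn as a triangle at the edge with its value.

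Most members were slightly higher in mutant males. In males 53 of 79 members were higher in mutants, 67.1% against 50.6% of all tested genes, with a median log2 difference of 0.05 against 0.0017. In females 43 of 79 were higher (all genes 50.5%), with a median of 0.0064, and averaged over the sexes 48 were (all genes 49.9%), with a median of 0.017. The members' medians in single libraries had a within-group SD of 0.051 on the log2 scale. Between the wild-type groups, 22 of 79 members were higher in males than in females (27.8%, all genes 48.7%), with a median of -0.050. Cell type markers differed beside the shift in mutant males. Summed counts of the 8 pyramidal neuron markers were 168788 to 177784 in wild-type and 182761 to 199847 in mutant males, and 177210 to 195954 and 182889 to 188048 in the females. All 8 were higher in mutant males and 4 of 8 in mutant females. This was not particular to pyramidal neurons. In mutant males 10 of 11 inhibitory neuron, 8 of 9 astrocyte, 7 of 8 microglia, 5 of 6 dentate granule cell and 5 of 6 CA3 markers were higher. So were 6 of 8 pericyte and smooth muscle and 5 of 7 endothelial markers. Meningeal fibroblast and thalamus and habenula markers had 4 of 7 higher each. Of the CA1 markers 2 of 6 were higher, and of the oligodendrocyte precursor markers 2 of 7. For myelin it was 0 of 12, for choroid plexus 0 of 10, for ependyma 0 of 6 and for red blood cells 0 of 5. The part of any of these in the shift was not tested. Without the 3 libraries low in choroid plexus markers 43 members were higher in males, with a median of 0.022. That fit sets mutant male 1 alone against the wild-type males. With the score of those markers in the model 37 members were higher, with a median of -0.0068. That fit cannot fully tell the score apart from genotype in males. The median male minus female difference of genotype effects, 0.072, was 0.0082 without those 3 libraries, again with mutant male 1 alone. In females the median was -0.050, with 30 members higher, without wild-type female 3. That library had the lowest value of 17 members (21.5%, against 9.19% of all genes), and wild-type female 1 had the highest value of 30 members (38.0%, against 13.7%).

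Groups did not overlap for more members in one direction than the other in each sex. In males, 15 members were higher in every mutant than in every wild-type library (background 8.37% of tested genes) and 2 were lower (background 7.68%). The 15 were Kcna4, Kcne1l, Kcne4, Kcng2, Kcnh3, Kcnh4, Kcnh5, Kcnh6, Kcnj4, Kcnk2, Kcnk12, Kcnma1, Kcnn3, Kcnt2 and Kcnv1, and the 2 were Kcnj14 and Kcnk13. Kcne4 was parted in males only between 33.9 and 34.3 normalized counts. In females, 1 member was higher (Kcnn4; background 5.14%) and 8 were lower (Kcna1, Kcna6, Kcnj10, Kcnk13, Kcnmb4, Kcnn1, Kcnn3 and Kcns1; background 5.66%). Kcnn4 was parted only between 9.13 and 10.2 normalized counts. There 1 read stood for 0.830 to 0.908 normalized counts in wild-type and 1.09 to 1.13 in mutant females. Its separation therefore cannot be told apart from the scaling by library. None separated all 6 mutant from all 6 wild-type libraries (background 0.543%). Kcnk13 was the member that was lower without overlap in both sexes, as 198 of all genes were separated one way in both, and Kcnn3 was the member separated in opposite directions, as 118 of all genes were.

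Among the Kcna channels, 4 of 6 were higher in mutant males and 2 of 6 in mutant females. Kcna6, a voltage-gated subunit that assembles with other Kcna subunits, at chr6:126708329-126740674, had normalized counts of 1776, 1623 and 1644 in female wild types against 1388, 1378 and 1488 in female mutants, groups that do not overlap. In males they were 1432, 1725 and 1612 and 1362, 1329 and 1631, which overlap. The averaged log2 difference was -0.19 ± 0.06 (95% interval -0.32 to -0.07, limma adjusted p = 0.368). Exons of Gm26673 on the other strand cover 39.6% of its exon bases, and Gm26673 had a mean of 13.2 normalized counts. Kcna1 had 7367, 7404 and 7957 in female wild types against 6711, 7074 and 7174 in female mutants, with the highest value in wild-type female 3 (log2 difference -0.12 ± 0.04, limma adjusted p = 0.627). Kcna2, a partner of Kcna1 on axons, had overlapping groups in both sexes (-0.03 ± 0.05 averaged). Myelin markers were lower beside Kcna1 and Kcna6. Each of 12 was lower in the mutants of either sex, and their summed counts were 443644 to 507823 in wild-type and 377790 to 433466 in mutant females. With the myelin score as a covariate the averaged difference of Kcna6 was -0.16. For Kcna1 the averaged difference was -0.0652, and -0.0392 with that covariate, and the female difference was -0.0908 with it.

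In the other voltage-gated families no gene passed the adjusted threshold. Kcnc1, which allows fast spiking, had an averaged log2 difference of -0.01 ± 0.03. It was the tightest member, with a within-group SD of 0.048 on the log2 scale and normalized counts of 4891 to 5454 over the 12 libraries. Kcnd2 had an averaged difference of 0.05 ± 0.05. Of the Kcnq genes, 2 of 5 were higher in mutant males and 1 of 5 in mutant females. Kcnq3, an M-current subunit, had an averaged difference of 0.01 ± 0.03. Among 8 Kcnh genes of the ether-a-go-go type, 6 of 8 were higher in mutant males and 4 of 8 in mutant females, and the highest of them, Kcnh3, had 1991, 2024 and 1868 in male wild types against 2204, 2127 and 2292 in male mutants and an averaged difference of 0.09 ± 0.07, which was -0.0323 with the myelin score in the model.

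A silent subunit had the smallest p of any member for the genotype effect in males and for the average. Kcnv1, which assembles with Kcnb subunits and alters their gating, lies at chr15:45106284-45114920. Its normalized counts were 1322, 1358 and 1328 in male wild types, 1554, 1614 and 1463 in male mutants, 1331, 1502 and 1454 in female wild types and 1511, 1469 and 1544 in female mutants. All mutant males were above all wild-type males, and in females wild-type female 2 lay within the mutant range. The log2 difference was 0.21 ± 0.05 in males (95% interval 0.10 to 0.32, limma adjusted p = 0.407) and 0.14 ± 0.04 averaged (limma adjusted p = 0.316). It was 0.22 in males without the 3 libraries low in choroid plexus markers, where mutant male 1 was the only mutant male. Kcng2 had 749, 688 and 778 in male wild types against 875, 863 and 799.8 in male mutants, which do not overlap, and 723, 768 and 867 in female wild types against 869, 838 and 845 in female mutants, which do (averaged difference 0.16 ± 0.05, limma adjusted p = 0.385). The sodium-activated channel Kcnt2 had 977, 999.8 and 1075 in male wild types against 1196, 1157 and 1122 in male mutants, without overlap (log2 difference 0.19 ± 0.05, limma adjusted p = 0.407), and the female difference was 0.01 ± 0.05. Of the accessory genes, Kcne1l had 104, 101 and 80.7 in male wild types against 116, 118 and 142 in male mutants (0.40 ± 0.15, limma adjusted p = 0.441), and Kcnip4, a Kcnd partner, had a difference of 0.16 ± 0.07 in males and -0.10 ± 0.07 in females. Kcnrg, a regulator of Kcna channels near the minimum count, had 8.69 to 22.1 normalized counts over the libraries and an averaged difference of -0.30 ± 0.22. The Kcnrg difference was -0.124 without mutant male 3, -0.0353 without the 3 libraries low in choroid plexus markers and -0.54 with the myelin score in the model.

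**Figure D5:**
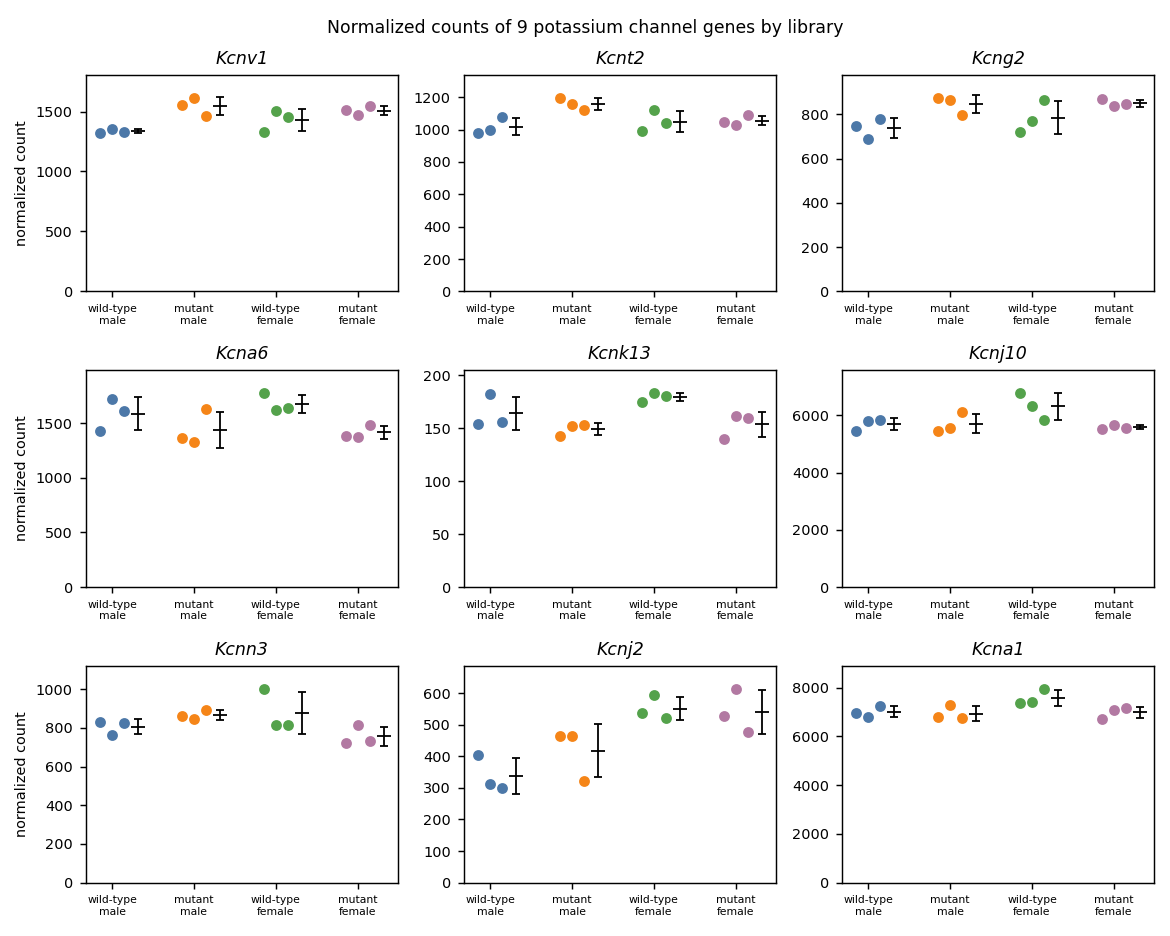
Normalized counts (vertical axis from 0) of 9 members in each library, 3 points a group, with the group mean and SD in black. Kcnv1 and Kcnt2 are higher in all 3 mutant males than in the wild-type males, Kcnj10 is lower in all 3 mutant females than in the wild-type females, and Kcnj2 is lower in all 3 wild-type males than in the wild-type females.

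Among the inward rectifiers, 7 of 12 were higher in mutant males and 8 of 12 in mutant females. Kcnj10, which clears extracellular potassium into astrocytes and oligodendrocytes, lies at chr1:172341210-172374085 and had 6773, 6332 and 5835 in female wild types against 5518, 5661 and 5565 in female mutants. The female groups do not overlap, and the male groups, 5458, 5799 and 5853 against 5468, 5571 and 6108, do. The log2 difference was -0.18 ± 0.06 in females (95% interval -0.30 to -0.05, limma adjusted p = 0.584), and -0.15 with the myelin score as a covariate. Of 9 astrocyte markers, 3 were higher and 6 lower in mutant females, with a median log2 difference of -0.012. Kcnj4 had 1506, 1556 and 1499 in male wild types against 1883, 1797 and 1627 in male mutants, without overlap (0.22 ± 0.08, limma adjusted p = 0.428), and the difference was 0.0765 with the myelin score as a covariate. Kcnj14 was lower in mutant males, with 47.5, 61.7 and 70.2 in male wild types against 35.4, 43.1 and 43.5 in male mutants (-0.53 ± 0.19, limma adjusted p = 0.438). The male minus female difference of its genotype effects was -0.73 ± 0.27 (limma adjusted p = 0.619). The channels opened by G proteins, Kcnj3 and Kcnj6, had averaged differences of 0.01 ± 0.05 and 0.04 ± 0.06. Exons of Gm26794 on the other strand cover 31.1% of the exon bases of Kcnj3.

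Of the 10 tandem-pore genes, 8 of 10 were higher in mutant males and 6 of 10 in mutant females. Kcnk13, a channel known from microglia, lies at chr12:99964499-100062682 and had 154, 182 and 156 in male wild types against 143, 152 and 153 in male mutants, and 175, 183 and 181 in female wild types against 139.9, 162 and 159.5 in female mutants. The mutant values lay below the wild-type values in each sex, with the male groups parted only between 153.2 and 154.2. The averaged log2 difference was -0.18 ± 0.07 (95% interval -0.33 to -0.03, limma adjusted p = 0.481). Of 8 microglia markers, 7 were higher and 1 lower in mutants, with a median averaged difference of 0.034. Kcnk1, the highest of the family, had an averaged difference of 0.05 ± 0.06.

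Among the calcium-activated channels, Kcnn3 lay on opposite sides of wild type in the 2 sexes. This small-conductance channel, which shapes the afterhyperpolarization, lies at chr3:89520164-89675132. Its normalized counts were 832, 764 and 825 in male wild types, 859.9, 845 and 895 in male mutants, 1002, 814 and 816 in female wild types and 724, 813 and 733 in female mutants. In males every mutant library was higher than every wild-type library, and in females every mutant library was lower, with the gap in females between 813.0 and 814.1. The log2 difference was 0.10 ± 0.08 in males and -0.21 ± 0.08 in females (limma adjusted p = 0.696 and 0.625), and the difference between them was 0.31 ± 0.11 (limma adjusted p = 0.619). The highest value was in wild-type female 1, and without the 3 libraries low in choroid plexus markers the female difference was -0.11. Kcnn2, the highest Kcnn gene, had an averaged difference of 0.11 ± 0.07, which was 0.0527 without wild-type female 3 and 0.0547 with the myelin score in the model. Kcnn4 had 12.9, 14.2 and 8.88 in male wild types, 7.74, 10.2 and 14.1 in male mutants, 9.08, 8.98 and 9.13 in female wild types and 10.2, 11.9 and 10.2 in female mutants. Kcnma1, the large-conductance channel, had 2921, 2942 and 2982 in male wild types against 3038, 3123 and 3359 in male mutants (0.10 ± 0.05, limma adjusted p = 0.523), and 3054, 2739 and 3073 in female wild types against 3062, 2903 and 3205 in female mutants, which overlap. Its averaged difference was 0.08 ± 0.04 (95% interval -0.00 to 0.16).

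Between the sexes, Kcnj2 stood out among wild-type animals. Kcnj2, a strong inward rectifier found in neurons and blood vessels, lies at chr11:111066164-111076821. Its normalized counts were 404, 311 and 300.2 in male wild types, 465, 466 and 321 in male mutants, 538, 593 and 523 in female wild types and 528, 614 and 477 in female mutants. All 3 wild-type males lay below all 3 wild-type females, and mutant males also lay below mutant females. The male minus female log2 difference was -0.71 ± 0.15 in wild type (95% interval -1.05 to -0.38, limma adjusted p = 0.398) and -0.38 ± 0.15 in mutants (limma adjusted p = 0.674). DESeq2 on the recovered reads called it in wild type (-0.71, DESeq2 adjusted p = 0.00577) and edgeR did not (edgeR adjusted p = 0.414). It was the 1 member called by any of these tools in any comparison, where DESeq2 called 0.131% of all genes (0.149% for the sex difference in mutants). The wild-type difference was -0.73 without the 3 libraries low in choroid plexus markers. Limma called no member for either sex difference (background 0.0457% in wild type and 0.0629% in mutants). At an unadjusted p under 0.05 it gave 5 members in wild type (background 6.43%) and 6 in mutants (background 7.14%).

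In wild type, 1 member was higher in every male than in every female library (Kcng3; background 5.83%) and 6 were lower (Kcna1, Kcnj2, Kcnj4, Kcnmb4, Kcnq1 and Kcnu1; background 6.45%). In mutants 7 were higher in males (Kcnc1, Kcne1l, Kcnh6, Kcnj3, Kcnn3, Kcns1 and Kcnt2; background 6.86%) and 3 lower (Kcnj2, Kcnj12 and Kcnj14; background 5.85%). Kcnmb4, a beta subunit of Kcnma1, had 51.4, 56.0 and 43.6 normalized counts in wild-type males and 80.8, 68.2 and 68.9 in wild-type females (-0.52 ± 0.18, limma adjusted p = 0.751), and exons of Kcnmb4os2 on the other strand cover 20.8% of its exon bases. In all, 24 members share exon bases with a gene on the other strand. The genotype and sex comparisons share groups of libraries, so their values are not independent.

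Partner and related genes were read from lists fixed by function. None of 19 tested potassium channel partner proteins outside the Kcn symbols (of 20 listed) was called for a genotype effect. Of these, 14 were higher in mutant males (median log2 difference 0.053) and 1 in mutant females (median -0.035). Cntn2, an adhesion protein that clusters Kcna channels beside the node of myelinated axons, had normalized counts of 3484, 4066 and 3972 in male wild types, 2709, 3536 and 3578 in male mutants, 4101, 4309 and 3722 in female wild types and 3249, 3694 and 3629 in female mutants. The averaged difference of Cntn2 was -0.22 ± 0.07 (limma adjusted p = 0.407). Cntn2 was named by its p, as the 1 of the 19 with a limma unadjusted p under 0.05 for that effect (background 8.87%). Of 11 tested voltage-gated sodium channel genes, 10 were higher in mutant males and 1 in mutant females, and of 17 calcium channel genes 14 and 8 were. Of 5 genes of hyperpolarization-activated cation channels and their partner, 4 and 3 were higher, and of 7 potassium pump and cotransporter genes, 4 and 7 were. None of these passed the adjusted threshold. The sodium channel medians were 0.083 in males and -0.047 in females, against 0.05 and 0.0064 for the potassium channel members.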

How the data were processed

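RNA was sequenced from 12 hippocampus libraries (TruSeq RNA v2, which does not mark strand). Per the submitters' processing notes, the tools named are Trimmomatic 0.35, TopHat2 2.1.0, HTSeq and DESeq2, with build GRCm38. The deposited values are a signal, each library's counts scaled by its own size factor. Dividing each column by its step recovered whole reads for 100% of values (tolerance 1e-06, relative to the read count). The 17496 genes whose mean reached 10 were tested with limma 3.58.1 on log2(value + 1), 1 mean per group, with Benjamini-Hochberg adjustment over all genes and a threshold of 0.05. Fold changes on this scale are understated for low genes. edgeR 4.0.16 and DESeq2 1.42.0 on recovered reads were alternatives. Exon lengths came from GENCODE M21. Named genes were any called member, the 5 smallest p per genotype contrast, the 3 smallest per sex contrast, the highest of each subfamily, and genes picked by role, except some that are not reported here. Members and lists were chosen with earlier results of these data known. Replicate pairs differed beyond sampling noise (chi-square per degree of freedom 3.43 to 30.7). Scripts were tested on simulated data.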

Additional observations from a re-analysis of the deposited data

Results flagged for a closer look

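Kcnn3 was picked out because all 3 mutant males lay above all wild-type males while all 3 mutant females lay below all wild-type females. The male minus female difference of its log2 genotype effects was 0.31 ± 0.11 (limma adjusted p = 0.619), so the test of the difference did not pass. It was 0.20 without the 3 libraries low in choroid plexus markers, where mutant male 1 was the only mutant male. Of 17496 tested genes, 118 were separated in opposite directions.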

How the results depend on the processing

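Tested settings were 3 other tools, another scaling, filter and pseudocount, a replicate block, marker scores as covariates and libraries left out. Of 982 values of single named genes under an alternative, 952 kept their side of the threshold and direction, 29 changed sign and 1 (Kcnj2) became called. No member was called in the main limma fit, where the smallest limma adjusted p of a member was 0.316. Keeping the side of the threshold therefore carries little weight. No setting called a member except DESeq2, with 1 (Kcnj2, sex difference in wild type). Over all genes DESeq2 called 35 in males, 11 in females, 75 averaged and 3 for the difference of genotype effects between sexes. It called 23 between wild-type and 26 between mutant sexes. In the same order limma called 0, 0, 1, 0, 8 and 11. Without the 3 libraries low in choroid plexus markers limma called 12, 1, 82 and 2 for the genotype effects and 19 between mutant sexes. The averaged count was 0 with the myelin score as a covariate and with no filter on low values, and the wild-type sex count was 13 with no filter. Leaving out 1 library gave 0 to 1 genes in males, 0 to 1 in females, 0 to 8 averaged, 0 to 1 for the difference, 8 to 13 between wild-type and 9 to 14 between mutant sexes. The members' median was -0.0068 in males with the choroid plexus covariate. For the difference of genotype effects between sexes the median was 0.0058 with that covariate and 0.0082 without the 3 libraries. It ranged from -0.0498 to 0.0286 in females with 1 library left out. The cause of these shifts was not tested.

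The sign changes concern averaged effects, none of them called, and the Kcnj13 difference of genotype effects between sexes. With the choroid plexus covariate Kcnj13 was 0.375, Kcnn4 -0.0233 and Kcnq3 -0.00854. With the myelin covariate Kcnh3 was -0.0323 and Kcnip4 -0.0487. Without the 3 libraries Kcnj13 was 0.185, Kcnj3 -0.0113, Kcnj6 -0.041, Kcnn4 -0.162 and Kcnq3 -0.00208. For Kcnj13 the difference of genotype effects between sexes was -4.60 ± 1.86 with all libraries and no covariate. It was 0.0763 with the choroid plexus covariate and 0.0173 without the 3 libraries. With 1 library left out the ranges were -0.0657 to 0.00971 for Kcna2, -0.0234 to 0.0106 for Kcnc1, -0.00129 to 0.0664 for Kcnip4, -1.3 to 0.12 for Kcnj13, -0.0208 to 0.0461 for Kcnj3, -0.000226 to 0.0788 for Kcnj6, -0.00141 to 0.0736 for Kcnk1, -0.0732 to 0.125 for Kcnn4 and -0.0105 to 0.0233 for Kcnq3.

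The labels give same-numbered libraries no link other than the number. Their deviations correlated at -0.58 to 0.29 between groups, which cannot decide whether they share a batch. With the replicate number as a block, the replicate block fit called 0 genes for the averaged genotype effect against 1 without it, and 0 members. Depth limits the rarest members, such as Kcnn4, and was lower in every mutant than in every wild-type library.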
